A study of Mus musculus with 6 samples.

Results

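The caveolin and cavin genes are a group of 6 mouse genes, Cav1, Cav2, Cavin1, Cavin2, Cavin3 and Ehd2, which encode the structural proteins of caveolae. They were picked by symbol from a table of 24594 genes, because their level differed with doxycycline in earlier results of these data, so their values in that contrast are a description and carry no test. Cavin1 to Cavin3 are also known as Ptrf, Sdpr and Prkcdbp. RNA-seq was run on adult mouse epithelial organoids, small structures grown in gel from crypts of the proximal small intestine, with 3 libraries in each of 2 groups. All 6 libraries had the genotype TetON-hYAP/H2B-mCherry, in which doxycycline switches on a constitutively active human YAP, a transcriptional coactivator of the Hippo pathway, and a red fluorescent histone. The control group had no doxycycline, and the doxycycline group had 1 µg/ml for 48 h from passaging. Cultures grew with EGF, Noggin and R-spondin1, and adult crypts came from a single individual per sample, per the labels' protocols. The cell type that drives the tetracycline-responsive activator was not given in the sources used here. No group had doxycycline without the transgene, so the drug and YAP cannot be told apart.

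Caveolae are small flask-shaped pits of the plasma membrane. Caveolins insert into the inner face of the membrane as oligomers, cavins form a coat over them from the cytosol, and the ATPase EHD2 sits at the neck and holds the pit at the surface. They are best known from endothelium, fat, muscle and fibroblasts, where they flatten under membrane tension and so buffer it. Cavin-1 is needed to form the pit, and so is caveolin-1 in tissues other than muscle. Caveolin-2 joins caveolin-1 in mixed oligomers.

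The control libraries held 8533452 to 14643817 counts and the doxycycline libraries 11258768 to 16803062. Levels below are CPM, read counts scaled to library sizes that were adjusted by TMM, with factors of 1.16 to 1.17 in the control libraries and 0.843 to 0.879 in the doxycycline libraries. Directions are relative to that scale, on which the median log2 difference of the 12909 genes tested was -0.08, against -0.52 with total counts. Counts of the mouse gene Yap1 lay at 156.4 to 236.5 CPM without doxycycline and 142.4 to 149.0 CPM with it (log2 difference -0.51, edgeR adjusted p = 0.0707). Yap1 passed as lower with total counts (0.00657) and without control replicate 3 (1.28e-07). The human transgene itself was not analysed here, and whether any of its reads were counted under mouse Yap1 is not known. Yap1 therefore does not check the labels. Among the controls, replicate 3 differed most from the others, and some results that rest on it are given with and without it. Other genes of the lists below also changed their call without it and enter the counts only. A count table of whole organoids cannot tell fewer cells that express a gene from less RNA of it per cell.

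RefSeq start sites of GRCm38.p6, the assembly behind the authors' mm10, were at hand for 5 of the members, Cav1, Cav2, Cavin1, Cavin2 and Ehd2. The 250 bases before 3 of them are shown, for the gene that had the widest difference (Cavin2), for the most abundant gene (Cavin1) and for the caveolin with the higher level (Cav2). Capitals mark matches on either strand to GGAATG, the core letters bound by TEAD factors, which are the DNA-binding partners of YAP, or to TGANTCA, the letters bound by AP-1. Cavin2 is on the plus strand at chr1:51288876-51289125, Cavin1 on the minus strand at chr11:100970618-100970867 and Cav2 on the plus strand at chr6:17280935-17281184.
Cavin2: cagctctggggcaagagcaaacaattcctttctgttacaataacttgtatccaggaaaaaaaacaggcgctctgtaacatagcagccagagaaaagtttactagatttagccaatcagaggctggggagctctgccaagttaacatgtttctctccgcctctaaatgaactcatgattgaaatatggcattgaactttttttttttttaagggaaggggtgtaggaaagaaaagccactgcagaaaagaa
Cavin1: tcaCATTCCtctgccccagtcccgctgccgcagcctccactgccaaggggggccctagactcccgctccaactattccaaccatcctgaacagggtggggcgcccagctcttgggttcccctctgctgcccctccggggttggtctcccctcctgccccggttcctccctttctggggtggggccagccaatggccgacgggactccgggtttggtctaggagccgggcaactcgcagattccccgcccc
Cav2: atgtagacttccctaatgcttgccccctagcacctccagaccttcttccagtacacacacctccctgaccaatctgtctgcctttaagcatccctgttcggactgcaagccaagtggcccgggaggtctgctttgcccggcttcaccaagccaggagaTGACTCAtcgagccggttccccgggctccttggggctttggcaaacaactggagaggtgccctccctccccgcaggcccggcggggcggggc
The Cavin1 window held 1 TEAD match (CATTCC, first base at position -247 from the start site) and no AP-1 match, while the Cav2 window held 1 AP-1 match (TGACTCA, position -92) and no TEAD match. The windows of Cavin2, of Ehd2 (chr7:15967536-15967785, minus strand) and of both start sites of Cav1 (chr6:17306085-17306334 and chr6:17307390-17307639, plus strand) held neither. Among 32851 RefSeq windows of that length, 12.6% held the TEAD letters and 6.75% those of AP-1. The Cavin2 window had a GC content of 40.4%, and the windows of the other members 58.0 to 67.6%. A match is a run of letters and not a binding site, and these windows say nothing of more distant sequence.

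Of the 6 genes, all but Cavin3 had every doxycycline library above every control library. Among all genes tested, 30.0% stood higher in that way and 61.3% had groups that did not overlap in one direction or the other; the members were chosen on this contrast, so nothing is read from their count. All 6 passed the expression filter, but Cav1, Cavin2 and Cavin3 would not have passed on the control libraries alone.

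Among the caveolins, Cav1 encodes the main structural protein of caveolae outside muscle. Cav1 (Entrez 12389, chromosome 6, 17306335 to 17341328) had 0 counts in each control library and 26, 34 and 58 counts with doxycycline, or 2.63, 3.15 and 4.10 CPM. It was therefore seen with doxycycline only, at a level that stayed low, at percentile 17.5 of the genes tested. Against the floor of 3 counts over the control libraries, 0.0750 CPM, Cav1 was at least 45.2-fold higher with doxycycline, a log2 bound of 5.50 that was 4.70 without control replicate 1, the deepest control library. The spread between its doxycycline libraries (coefficient of variation 22.7%) was near the 15.9% that counting alone gives at this depth.

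Cav2, whose product associates with caveolin-1, lies 17204 bases from Cav1 on the same strand (Entrez 12390, chromosome 6, 17281185 to 17289130). Its level was 1.99, 4.62 and 1.51 CPM without doxycycline and 69.3, 58.9 and 66.4 CPM with it. The groups were far apart, and control replicate 2 was the highest control. The fitted log2 difference was 4.57 (SE 0.413), a 23.8-fold difference, and 5.19 without control replicate 2. Per kilobase of exon, Cav2 exceeded Cav1 by 24.4, 17.4 and 15.0 times in the doxycycline libraries. Caveolin-2 was thus the more abundant caveolin transcript in each of them, and in the control libraries it was the only member of the pair with counts. Cav3, the caveolin of muscle, had 0 counts in all 6 libraries, which allows up to 0.0750 CPM over the control group and 0.0861 CPM over the doxycycline group.

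Among the cavins, Cavin1 encodes the coat protein needed for caveola formation. Cavin1 (Entrez 19285, chromosome 11, 100956736 to 100970617, minus strand) was at 36.4, 42.2 and 34.6 CPM without doxycycline and at 464, 429 and 434 CPM with it. It was the member with the highest level per kilobase in every library, and the one with the narrowest spread, 10.5% in the control group and 4.32% with doxycycline. The log2 difference was 3.55 (SE 0.170), or 11.7-fold. By level with doxycycline it stood at percentile 96.5 of the genes tested, from percentile 58.8 in the control group.

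Cavin2 encodes a cavin that binds phosphatidylserine and helps to bend the membrane. Cavin2 (Entrez 20324, chromosome 1, 51289126 to 51302960) had 0 counts in each control library and 1413, 1642 and 2313 counts with doxycycline, or 142.9, 151.9 and 163.5 CPM. It went from no count to percentile 86.8 of the genes tested. The difference was at least 2055-fold against 3 counts over the control libraries, a log2 bound of 11.01 that was 10.20 without control replicate 1. The long non-coding gene 9330175M20Rik, which spans the locus in RefSeq, had 0 counts in the control libraries and 2 with doxycycline.

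Cavin3, first described as a binding protein of protein kinase C delta, was the exception. Cavin3 (Entrez 109042, chromosome 7, 105480616 to 105482197, minus strand) had 22, 6 and 26 counts in the control libraries and 36, 26 and 89 with doxycycline, or 1.29, 0.462 and 2.62 CPM against 3.64, 2.41 and 6.29 CPM. The groups overlapped, since doxycycline replicate 2 lay below control replicate 3. The log2 difference of 1.54 (SE 0.626) was the smallest of the 4 members with counts in both groups, and was 2.20 without control replicate 3, 1.09 without doxycycline replicate 3 and 1.10 with total counts. Its libraries spread by 74.7% and 48.3% in the control and doxycycline groups, where counting alone gives 23.6% and 14.1%. Cavin4, the cavin of muscle, had 4 counts in all without doxycycline and 6 with it.

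At the neck, Ehd2 (Entrez 259300, chromosome 7, 15946963 to 15967535, minus strand) was at 1.29, 1.54 and 1.81 CPM without doxycycline and at 64.4, 58.6 and 54.9 CPM with it. Both groups were tight and did not overlap. The log2 difference was 5.27 (SE 0.214), or 38.6-fold, the widest fitted difference among the members with counts in both groups. With doxycycline, Cav2 and Ehd2 were at 64.9 ± 5.33 and 59.3 ± 4.80 CPM (SD, n = 3), a scale that leaves out transcript length. Per kilobase of exon, Cav2 was at 20.8, 17.7 and 19.9 CPM per kb in doxycycline replicates 1, 2 and 3. Ehd2 was lower in each of these libraries, at 12.6, 11.4 and 10.7 CPM per kb.

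**Figure D1:**
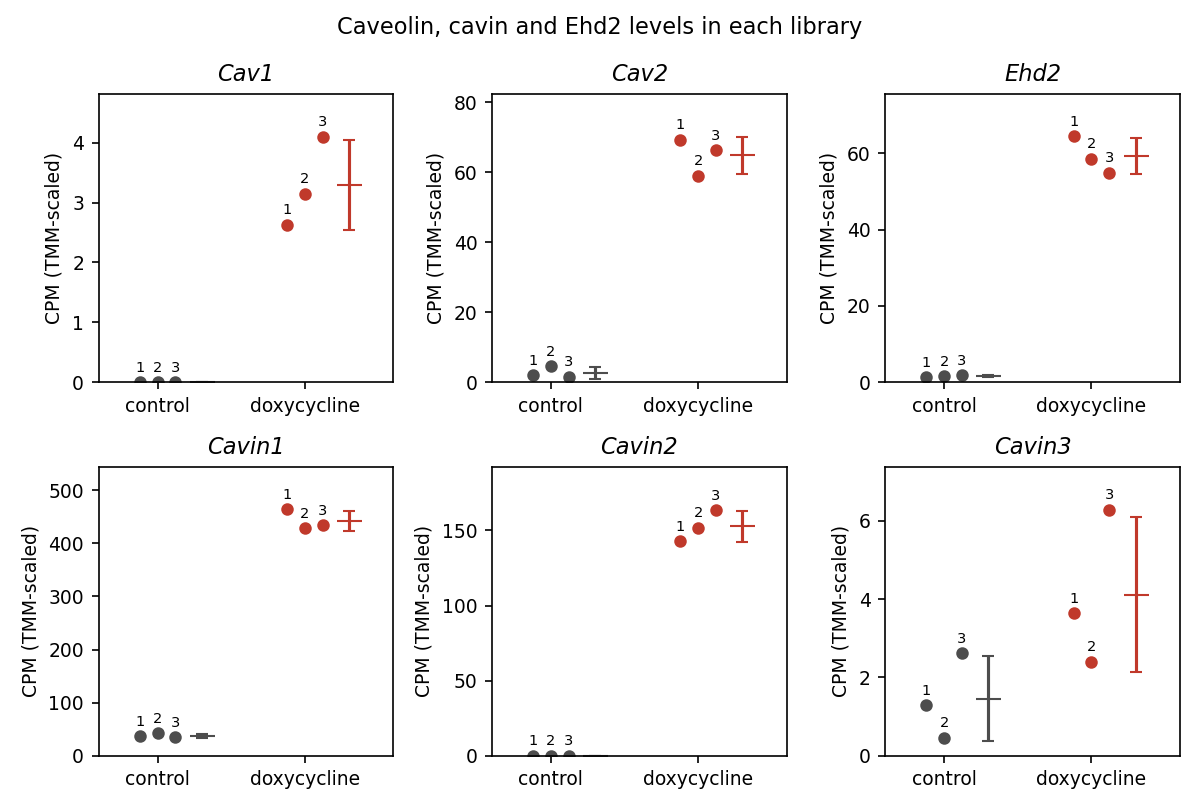
TMM-scaled CPM of each of the 6 genes on a linear axis from 0, with 1 point per library, numbered by replicate, and the group mean with its SD (bars, n = 3) beside the points. Cav1 and Cavin2 lie at 0 in all control libraries, and Cavin3 is the gene whose groups overlap, at 2.41 CPM in doxycycline replicate 2 and 2.62 CPM in control replicate 3.

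Levels of different genes were compared per kilobase of exon, from the union of exons in GENCODE M21. Summed over the 6 genes, the level was 12.04, 14.0 and 12.3 CPM per kb without doxycycline and 216, 204 and 214 CPM per kb with it. In the control group this sum was nearly all Cavin1 (84.4 ± 3.26%, SD, n = 3), with Cavin3 at 7.07 ± 5.44%, Cav2 at 6.16 ± 3.26% and Ehd2 at 2.37 ± 0.442%. With doxycycline, Cavin1 made up 59.96 ± 1.66%, Cavin2 23.7 ± 1.80%, Cav2 9.20 ± 0.489% and Ehd2 5.48 ± 0.413%. Cavin3 (1.17 ± 0.548%) and Cav1 (0.505 ± 0.114%) were the smallest parts. The order of the members per kilobase with doxycycline was Cavin1, Cavin2, Cav2, Ehd2, Cavin3 and Cav1, and no neighbours in it overlapped between libraries. In the control group, Cavin1 stood above the rest in every library, while Cavin3 overlapped both Cav2 and Ehd2, and Ehd2 lay below Cav2. The cavin coat transcripts outnumbered those of the main caveolin by a wide margin: Cavin1 exceeded Cav1 by 156.2, 120.6 and 93.7 times per kilobase in doxycycline replicates 1, 2 and 3. Cavin1 exceeded Cavin2 by 2.84, 2.47 and 2.32 times in the same libraries.

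**Figure D2:**
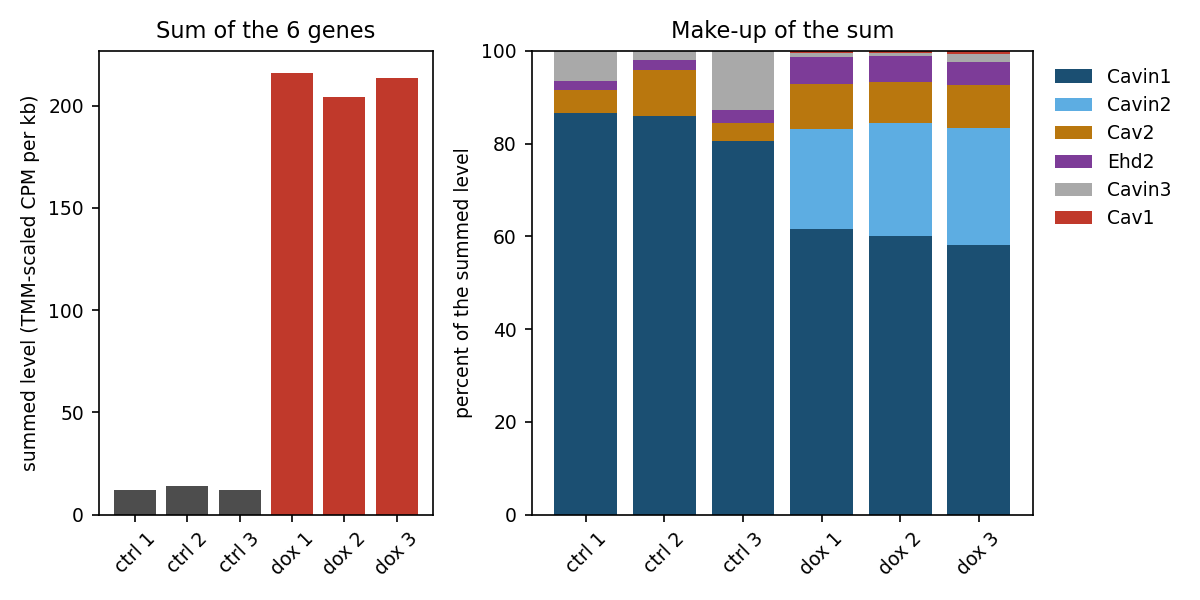
Left, the summed level of the 6 genes in each library, in TMM-scaled CPM per kb of exon (bars from 0; control grey, doxycycline red). Right, the percent of that sum in each gene; Cavin1 fills 80.6 to 86.5% in the control libraries and 58.2 to 61.5% with doxycycline, where Cavin2 takes 21.6 to 25.1%.

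The next question was how other genes of caveolae and of related membrane coats stood in the same comparison, tested with edgeR over all genes. In the list of paralogues and neck proteins, Ehd1, Ehd4 and Pacsin2 rose and Pacsin1 fell, with 5 of 8 genes tested; of all genes tested 21.7% were called higher and 23.6% lower. Ehd1, an ATPase of endosome recycling, rose from 143.2 ± 9.29 to 515 ± 26.3 CPM (SD, n = 3; log2 difference 1.85, adjusted p = 1.91e-04), and its paralogue Ehd4 from 60.3 ± 6.12 to 127.1 ± 1.35 CPM (1.08, adjusted p = 0.00145). Pacsin2, the widely expressed F-BAR protein of the caveola neck, rose from 140.6 ± 15.0 to 554 ± 7.34 CPM (1.98, adjusted p = 1.79e-04). Pacsin1, its neuronal paralogue, fell from 60 counts to 2, at a low level (1.42 ± 0.531 to 0.0674 ± 0.117 CPM, adjusted p = 0.00748). The ratio after scaling was 26.1 (95% exact binomial interval 6.92 to 220.6), and 15.4 without doxycycline replicate 3; doxycycline replicate 1 held both counts, and without it Pacsin1 was at least 12.4-fold lower. Pacsin3, at 2.20 ± 2.04 and 3.82 ± 0.366 CPM, did not pass (adjusted p = 0.299); it did once control replicate 3 was left out (2.27e-04). Ehd3 had 6 and 22 counts in the groups and was not tested. The median log2 difference of the 5 was 1.08, beside -0.08 over all genes tested.

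In the list of caveola partners and regulators, 5 of 11 genes tested rose and 1 fell, beside 21.7% and 23.6% of all genes tested. The median log2 difference of the list was 0.74. Prkcd, the kinase that cavin-3 binds, rose from 41.4 ± 12.8 to 151.7 ± 2.07 CPM (1.87, adjusted p = 0.00106), and Flna, which ties caveolae to actin, from 45.3 ± 6.19 to 99.0 ± 8.35 CPM (1.13, adjusted p = 0.00189). Src, a kinase of caveolin-1, rose from 163.5 ± 26.7 to 273 ± 9.72 CPM (0.74, adjusted p = 0.0117). Its relative Fyn fell from 10.95 ± 1.42 to 2.49 ± 0.737 CPM (-2.12, adjusted p = 0.00125). Dnm2, the dynamin that severs caveolae, and the formin gene Diaph1 passed at adjusted p of 0.0431 and 0.0200. Nos3, the endothelial nitric oxide synthase that caveolin-1 binds, had 3.11 ± 2.06 and 0.960 ± 0.345 CPM (adjusted p = 0.0522). It passed as lower with total counts (0.0202), without a low-count filter (0.0489), with DESeq2 (0.0255) and without control replicate 1 (0.0291). The count that rose was 2 with total counts or without doxycycline replicate 2 or 3, and 3 without control replicate 2 or doxycycline replicate 1. Without control replicate 3, 7 rose and 3 fell. Dnm2, Diaph1 and Src lost their calls with total counts (adjusted p = 0.290, 0.601 and 0.178). Leaving out any library but control replicate 3 also ended those of Dnm2 (0.110 to 0.121) and Diaph1 (0.0702 to 0.0808), and leaving out doxycycline replicate 2 or 3 that of Src (0.0554 and 0.0535).

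Flotillins mark another kind of membrane domain, and MAL proteins sort cargo to the apical face of epithelia. Of 8 genes in that list 5 rose and 0 fell (median log2 difference 1.66), beside 21.7% and 23.6% of all genes tested. Mal rose from 2.46 ± 0.800 to 57.0 ± 5.75 CPM (4.53, adjusted p = 8.21e-05), Mall from 132.0 ± 21.1 to 738 ± 31.3 CPM (2.48, adjusted p = 1.31e-04) and Stom, which encodes stomatin, from 59.95 ± 5.74 to 328 ± 11.6 CPM (2.45, adjusted p = 9.62e-05). Pag1 and Mal2 rose as well. The flotillin genes themselves did not pass: Flot1 had 7.57 ± 3.30 and 10.9 ± 1.41 CPM (adjusted p = 0.227) and Flot2 18.1 ± 6.01 and 26.0 ± 4.93 CPM (adjusted p = 0.163). Without control replicate 3 their adjusted p were 3.93e-04 and 1.54e-04.

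In the clathrin pathway 11 of 22 genes rose and none (0) fell, beside 21.7% and 23.6% of all genes tested. The median log2 difference of the list was 0.53. The widest rises were those of Fcho1, an early pit protein (0.490 ± 0.239 to 4.29 ± 1.21 CPM, log2 difference 3.05, adjusted p = 0.00182), and the epithelial epsin gene Epn3 (29.93 ± 4.996 to 214 ± 6.29 CPM, 2.84, adjusted p = 9.41e-05). The adaptor subunit gene Ap2a2 rose from 112.6 ± 2.52 to 329 ± 3.22 CPM (1.55, adjusted p = 2.74e-04), and the clathrin heavy chain gene Cltc from 214 ± 22.9 to 409 ± 16.3 CPM (0.93, adjusted p = 0.00303). The clathrin light chain gene Clta had 222 ± 104 and 236 ± 16.7 CPM (adjusted p = 0.830), and passed as higher without control replicate 3 (log2 difference 0.56, adjusted p = 5.06e-06). The count that rose was 20 without control replicate 3, and 6 with total counts or without control replicate 2 or any single doxycycline library. Over all 4 lists, 24 of 46 genes tested rose and 2 fell (median 0.65), beside 21.7% and 23.6% of all genes tested. Of the 24, 16 stayed past the threshold in every alternative that gave them a value. Without control replicate 3, 38 list genes rose and 4 fell. In that setting the calls among all genes tested also grew, from 2800 to 4632 higher and from 3050 to 4654 lower.

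**Figure D3:**
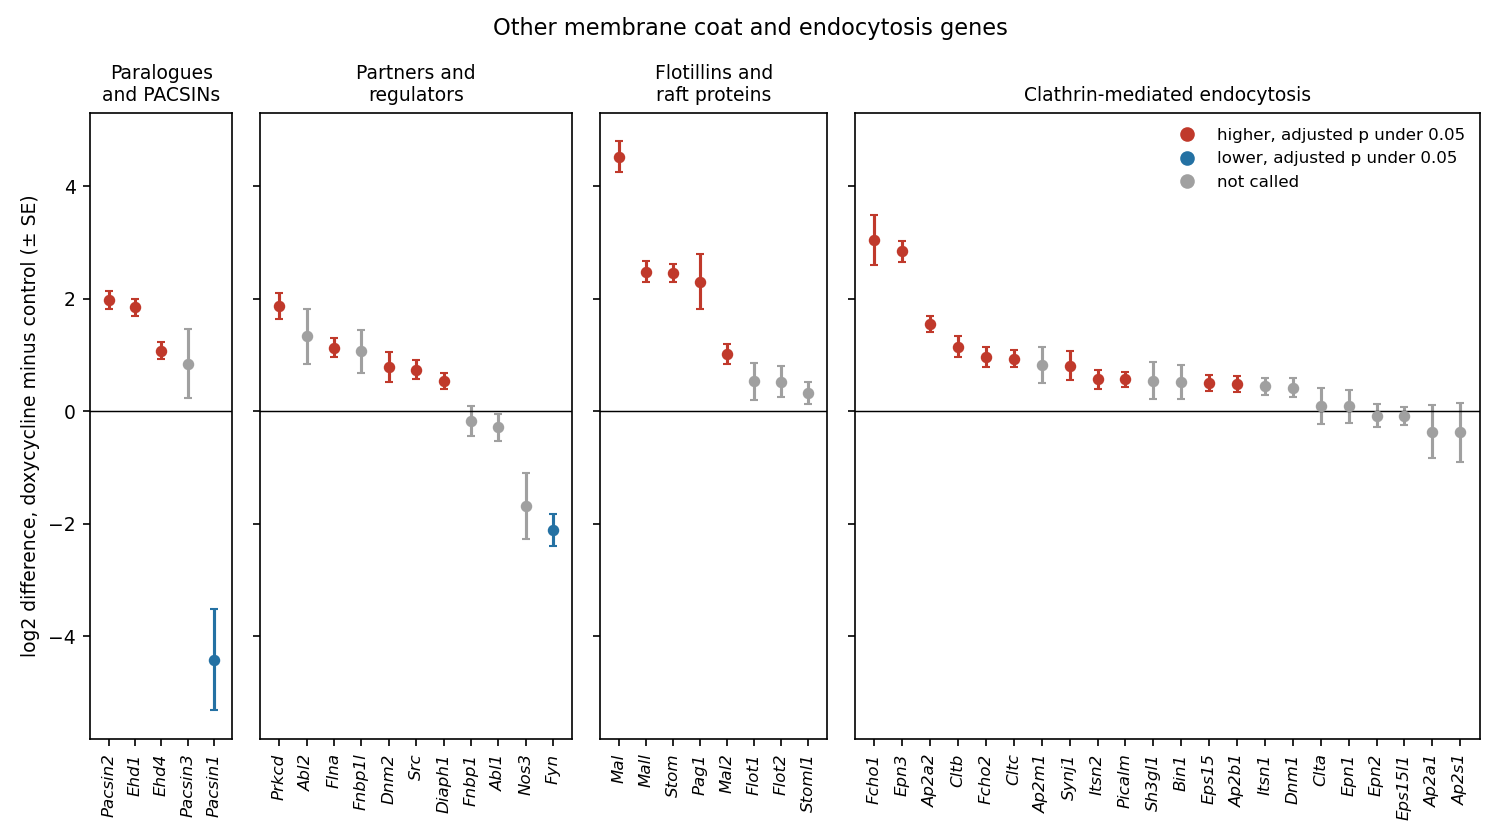
Fitted log2 difference of doxycycline minus control (points, with SE as bars) for the 46 genes tested in the 4 lists, ordered within each list; red and blue passed edgeR's adjusted p of 0.05 as higher and lower, and grey did not. Mal at 4.53 and Pacsin1 at -4.41 are the extremes; the Pacsin1 value rests on 2 counts with doxycycline.

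The neighbours of the members in the genome, chosen by position as the nearest protein-coding gene on each side in RefSeq, gave the same contrast for the surrounding loci. Beside the caveolin pair, Tes rose from 170.1 ± 22.9 to 300.1 ± 17.0 CPM (log2 difference 0.82, adjusted p = 0.00650; 0.0945 with total counts), while Met, at 88.3 ± 35.4 and 142.4 ± 12.2 CPM, did not pass (0.69, adjusted p = 0.119) except with control replicate 3 left out (3.92e-04). Beside Cavin1, Stat3 rose from 69.7 ± 5.11 to 226 ± 8.47 CPM (1.70, adjusted p = 2.47e-04) and Atp6v0a1 from 65.6 ± 15.2 to 240.8 ± 12.01 CPM (1.88, adjusted p = 5.66e-04). Beside Cavin2, Tmeff2 had 0 counts in the control libraries and 2 with doxycycline, and Nabp1, 162007 bases away, rose from 28.6 ± 15.3 to 231 ± 8.43 CPM (3.01, adjusted p = 0.00180). Beside Cavin3, Cckbr had 0 counts in all libraries and Smpd1 rose from 7.31 ± 0.508 to 19.0 ± 2.72 CPM (1.38, adjusted p = 0.00169). The close neighbours of Ehd2 did not pass: Nop53, 854 bases away, had 25.3 ± 8.43 and 19.3 ± 2.87 CPM (adjusted p = 0.301), and Bicra, 3135 bases away, 41.9 ± 15.5 and 54.9 ± 9.42 CPM (adjusted p = 0.344). Nop53 passed as lower with total counts (adjusted p = 0.0423) and without control replicate 3 (4.34e-04).

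Genes with the most similar pattern were found among the 10071 genes whose mean reached 5 CPM, by the root mean square difference of log2 CPM (prior count 2), centred on each gene's mean over the 6 libraries. Nearest to Cavin1 were Rasgef1b (0.0823), Gk (0.123), Epha2 (0.129), Fgd3 (0.139) and Dusp14 (0.141). Of these, Epha2, an ephrin receptor gene, had 33.8 ± 7.51 and 426 ± 16.4 CPM. Nearest to Cav1 were the keratin gene Krt20 (0.171), Lynx1 (0.228), Fos (0.234), Krt7 (0.237) and Klf4 (0.240). With Cav1 at 0 in the control libraries this choice depends on the prior count: at 0.5 the nearest were Wnt7a, Igf2bp1, Il33, Ccn2 and Nid1, with 0 of 5 shared, whereas 4 of 5 were shared for Cavin1.

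Because caveola genes are abundant in other cell types, marker lists of those types were read in the same libraries. The epithelial list summed to 5636 to 6316 CPM in the control libraries and 19344 to 20559.6 CPM with doxycycline. Of its 10 genes 6 rose and 1 fell, beside 21.7% and 23.6% of all genes tested. Krt19, a simple-epithelium keratin and the highest gene of the list in each group, rose from 1607 ± 137.0 to 8879 ± 302 CPM (adjusted p = 1.00e-04). With it rose Krt8 (731 ± 318 to 4691 ± 294 CPM) and Krt18 (262 ± 106 to 1953 ± 80.6 CPM). These keratin genes made up most of the sum with doxycycline. Cdh1, Cldn7 and Vil1 also rose, but lost their calls with total counts (adjusted p = 0.266, 0.326 and 0.0577). Leaving out doxycycline replicate 1 or 2 also ended those calls (0.0515 to 0.0966). The intestinal transcription factor gene Cdx1 fell from 292.6 ± 60.1 to 16.5 ± 0.910 CPM (log2 difference -4.14, adjusted p = 5.36e-05). Epcam, Elf3 and Cdx2 were not called (adjusted p = 0.745, 0.821 and 0.107), and without control replicate 3 they passed as higher (2.69e-04, 1.16e-06 and 0.00191). The fibroblast list (10 genes) summed to 4.43 to 6.49 CPM and 0.925 to 1.70 CPM. In it Col1a1, Dcn, Lum and Thy1 had 0 counts in all libraries, and Vim fell from 4.85 ± 1.29 to 0.826 ± 0.272 CPM. The endothelial list (10 genes) summed to 3.39 to 9.06 CPM and 13.3 to 14.5 CPM, most of it Egfl7; Kdr had 0 counts in all libraries, and Cdh5 and Emcn had 0 in the control group and up to 0.283 and 0.141 CPM with doxycycline. Tek, an angiopoietin receptor gene of endothelium, was at 0.292, 0.385 and 0.604 CPM without doxycycline and 1.11, 1.67 and 1.41 CPM with it, where Cav1 was at 2.63 to 4.10 CPM. Tek and Egfl7 rose (log2 differences 1.75 and 1.53, adjusted p = 0.0154 and 0.0382). Pecam1 was lower in every doxycycline library, at 0.303 to 0.565 CPM against 0.585 to 0.924 CPM without it. Cldn5 and Erg had 4 and 2 counts in the control group and 0 with doxycycline. Tie1 (0 and 13 counts) and Plvap (15 and 18) had more counts with doxycycline. Pecam1, Cldn5, Erg, Tie1 and Plvap were below the expression filter and were not tested. The call of Tek was lost with the replicate block (0.0550) and without control replicate 1 or 2 or doxycycline replicate 2 or 3 (0.0568 to 0.0680), and that of Egfl7 with total counts (0.0944) and without any single library but control replicate 3 (0.0669 to 0.104). The smooth muscle and pericyte list (8 genes) summed to 6.84 to 9.78 CPM and 16.8 to 21.4 CPM, most of it Tagln, with Acta2 and Myh11 at no more than 0.201 CPM in any library. Rgs5 was lower in every doxycycline library, at 0.141 to 0.202 CPM against 0.702 to 2.00 CPM, and Cnn1 had 8 counts in the control group and 0 with doxycycline. Des, Lmod1 and Actg2 had 0 counts in the control group and 6, 2 and 1 with doxycycline. Of this list only Tagln was tested. The adipocyte list (6 genes) summed to 13.2 to 23.7 CPM and 121.8 to 140.2 CPM, nearly all of it Cidec, while Adipoq, Fabp4, Lep and Retn had 0 counts in all libraries. The immune list (8 genes) summed to 45.5 to 68.5 CPM and 36.0 to 37.4 CPM, most of it Csf1r and Cd14. Csf1r was at 18.6 to 40.7 CPM without doxycycline and 24.7 to 25.7 CPM with it, and was not called (adjusted p = 0.826). It passed as higher without control replicate 3 (0.0252). Cd14 fell from 20.9 ± 3.19 to 5.58 ± 0.921 CPM (log2 difference -1.90, adjusted p = 8.2e-04). Ptprc was at 0 but for 0.141 CPM in doxycycline replicate 3. The mesothelial list (4 genes) summed to 30.3 to 43.6 CPM and 269.5 to 318 CPM, nearly all of the latter Msln, with Wt1 at 0 but for 0.141 CPM in doxycycline replicate 3. Lrrn4, not tested, had 7 counts in the control group and 35 with doxycycline. Upk3b, the highest gene of that list in the control group, fell from 23.5 ± 9.85 to 9.23 ± 2.60 CPM (edgeR adjusted p = 0.0207). Its call was lost without doxycycline replicate 1 or 2 (0.0834 and 0.0861). Cidec, Msln and Tagln rose (adjusted p = 2.51e-04, 6.26e-05 and 0.00228). The part of Cidec, Msln, Tagln, Egfl7 and Tek, higher with doxycycline, in the caveola gene values was not tested.

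**Figure D4:**
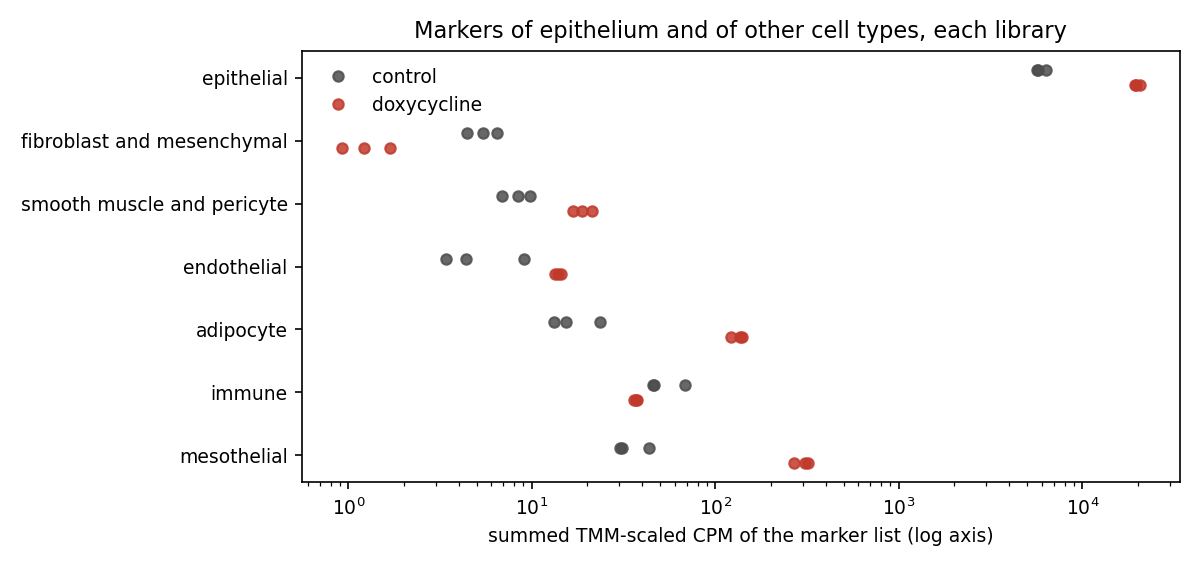
Summed TMM-scaled CPM of each marker list on a log axis, 1 point per library (control grey, doxycycline red). The epithelial list stands highest in all 6 libraries, and the fibroblast list is lower with doxycycline, at 0.925 to 1.70 CPM.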

How the data were processed

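Column-purified RNA was made into libraries with Illumina's TruSeq chemistry and run on a NextSeq, per the labels' protocols. The authors deposited whole-number read counts per Entrez gene; their build, per the submitters' processing notes, was mm10. What aligner, counter, annotation and strand setting they used is not given in the sources used here. Overlapping and antisense genes may therefore share counts. RefSeq's GRCm38.p6 table matched 24570 of 24594 IDs and gave symbols and positions.

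Counts were tested with edgeR 4.0.16 in R 4.3.3: its expression filter by group, TMM scaling and a robust quasi-likelihood test of the treatment, adjusted by Benjamini-Hochberg over the 12909 genes left, at a threshold of 0.05. "Rose" and "fell" are used of genes past it. A group with 0 counts gives a lower bound against 3 counts over that group, which covers counting error only. The pipeline was run on simulated counts in which far fewer genes changed than passed here, so that run does not check the calls at this share. Alternatives were RLE factors, total counts, no filter, 10 counts in 3 libraries, DESeq2 1.42.0, limma-voom (limma 3.58.1), the replicate block, and each library left out.

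The members and the gene lists were chosen with earlier results of these data known. Named genes were the 6 members, Yap1, genes of the 4 lists of related membrane genes (at least the 3 smallest adjusted p of each), the highest and the undetected markers, and the 5 genes nearest in pattern to Cav1 and to Cavin1. The neighbours were added by position alone, after the values had been seen. Also added then, by name, were Cdx1, Epcam, Elf3, Cdx2, Krt8, Krt18, Cdh1, Cldn7, Vil1, Tek, Csf1r, Cd14 and Upk3b. Of the markers not tested, Pecam1, Cldn5, Erg, Tie1, Plvap, Rgs5, Cnn1, Des, Lmod1, Actg2 and Lrrn4 were likewise added by name.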

Additional observations from a re-analysis of the deposited data

How the results depend on the processing

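The 4 members with counts in both groups kept their direction in every alternative run. With total counts the log2 difference was 3.11 for Cavin1 and 4.83 for Ehd2, and the log2 lower bounds were 5.05 for Cav1 and 10.56 for Cavin2. With single libraries left out, the ranges were 1.09 to 2.20 for Cavin3, 4.37 to 5.19 for Cav2, 4.70 to 5.63 for the bound of Cav1 and 10.20 to 11.06 for that of Cavin2; fewer control reads raise the floor behind a bound.

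Of all genes tested, 2800 were higher and 3050 lower, against 1747 and 5131 with total counts, and 1945 to 4632 and 1888 to 4654 with single libraries left out; the highest counts were without control replicate 3. Over the 4 lists, genes called higher ranged from 16 to 38 and lower from 2 to 4 with single libraries left out, and lower were 5 with total counts and 1 with the filter of 10 counts in 3 libraries. That filter removed Pacsin1, so the paralogue list then had 0 lower. Among partners and regulators, 2 to 7 were higher and 1 to 3 lower with single libraries left out; 2 were higher and 3 lower with total counts, and 2 were lower without a low-count filter and with DESeq2. Among clathrin-pathway genes, 6 to 20 were higher with single libraries left out, and 6 were higher and 1 lower with total counts. Ap2a1 and Ap2s1, at -0.36 and -0.37 and not called with all libraries, passed as higher without control replicate 3 (0.43 and 0.53); with single libraries left out they ranged from -0.65 to 0.43 and from -0.69 to 0.53. The markers Epcam and Csf1r, at -0.14 and -0.09, likewise passed as higher without control replicate 3 (both 0.34), in ranges of -0.35 to 0.34 and -0.30 to 0.34. The cause was not tested.

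Same-numbered libraries of the groups did not deviate together (correlations of -0.30, 0.12 and -0.19 across genes), and the main fit did not pair them. Whether same-numbered cultures share an animal is not stated in the sources used here. With 3 libraries per group these correlations cannot settle it. With the replicate block, 3 partners and regulators and 6 clathrin-pathway genes were higher. The 5 genes nearest to Cav1 shared 0 with those at a prior count of 0.5 and 2 with those from total counts. Depth limits Cav1 and Cavin3 most, with 118 and 151 counts over the doxycycline libraries.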
